A study of Mus musculus with 10 samples.

Results

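Transcript levels of 8 genes for proteins of the secondary granules of neutrophils, namely Ltf, Camp, Ngp, Lcn2, Olfm4, Pglyrp1, Cd177 and Chil3, were examined in leukaemic marrow cells of mice with acute promyelocytic leukaemia (APL). The genes were chosen by name. A probe set (the group of array probes that reads 1 transcript) was taken where the platform annotation gave it a member as its only gene symbol. Each of the 8 genes had 1 such probe set among 45037, so no choice between probe sets arose, and all 8 were among the 14581 genes tested. The leukaemia comes from mice transgenic for PML-RARα, the fusion protein that blocks myeloid cells at the promyelocyte stage, on the FVB N/J strain at 8 to 10 weeks of age. The promoter that drives the transgene, the number of leukaemias and the number of animals behind each sample are not given in the sources used here. All groups are GFP-positive bone marrow leukaemia cells, marked by a retrovirus, expanded by transplantation into syngeneic recipients and sorted by flow cytometry. The untreated subsets are SC, PD and TD. RAPD and RATD are the PD and TD subsets of marrow exposed to ATRA (all-trans retinoic acid, the natural ligand of the receptor in the fusion) at 10 mg/kg, for 5 days by the treatment protocol and 3 to 5 days by the source names. The labels do not spell out SC, PD or TD or the markers used to sort them. Each group had 2 arrays described as biological replicates, 10 arrays in all. Whether the 2 come from separate animals is not stated, so p-values measure the spread between these arrays.

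Secondary, or specific, granules are made at the myelocyte and metamyelocyte stages, after the primary granules that hold myeloperoxidase and elastase. Their contents include lactoferrin (Ltf), which binds iron, and neutrophil gelatinase-associated lipocalin (Lcn2), which binds bacterial siderophores. Camp encodes the precursor of the cathelicidin peptide CRAMP, and Ngp encodes a granule protein that carries the same cathelin-type fold. Pglyrp1 encodes a protein that binds peptidoglycan, Olfm4 encodes olfactomedin 4, a matrix glycoprotein found in a subset of neutrophils, and Cd177 encodes a glycosylphosphatidylinositol-anchored surface and granule protein. Chil3 encodes the chitinase-like protein Ym1, which is made by immature neutrophils and by some macrophages. Transcription of several of these genes is known to depend on C/EBPε, and retinoic acid relieves the block of APL cells.

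Camp, Ngp and Ltf lie in this order on chromosome 9 in the RefSeq annotation of GRCm38.p6, with 18 annotated genes between Camp and Ngp and 25 between Ngp and Ltf. Pglyrp1 and Cd177 are both on chromosome 7. The 250 bases before the annotated start are printed for the 3 members whose group means spanned at least 2 log2 units over the 5 groups (Ltf, Pglyrp1 and Ngp) and for the 2 with the smallest span (Camp and Chil3), so that the regions can be set beside the levels that follow. They are RefSeq sequences of GRCm38.p6, given 5′ to 3′ on the strand of the gene, and capitals mark the letters TTNNGNAA, the core of a C/EBP-type site, on either strand.
Ltf, chr9:111019042-111019291, plus strand: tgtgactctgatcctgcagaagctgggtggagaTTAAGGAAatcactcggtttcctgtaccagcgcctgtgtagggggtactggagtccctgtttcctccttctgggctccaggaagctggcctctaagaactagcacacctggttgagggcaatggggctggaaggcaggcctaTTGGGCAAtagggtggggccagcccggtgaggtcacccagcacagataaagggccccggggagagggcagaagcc
Pglyrp1, chr7:18884440-18884689, plus strand: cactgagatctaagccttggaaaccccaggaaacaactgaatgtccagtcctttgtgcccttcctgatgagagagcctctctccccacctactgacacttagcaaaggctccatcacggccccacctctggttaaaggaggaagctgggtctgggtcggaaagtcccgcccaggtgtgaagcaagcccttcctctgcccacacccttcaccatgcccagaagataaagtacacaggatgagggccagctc
Ngp, chr9:110419558-110419807, plus strand: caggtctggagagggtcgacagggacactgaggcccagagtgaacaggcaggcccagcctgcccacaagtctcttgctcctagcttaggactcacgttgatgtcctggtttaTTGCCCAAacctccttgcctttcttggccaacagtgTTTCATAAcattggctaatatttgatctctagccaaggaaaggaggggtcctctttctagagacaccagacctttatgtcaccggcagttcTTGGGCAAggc
Camp, chr9:109849457-109849706, minus strand: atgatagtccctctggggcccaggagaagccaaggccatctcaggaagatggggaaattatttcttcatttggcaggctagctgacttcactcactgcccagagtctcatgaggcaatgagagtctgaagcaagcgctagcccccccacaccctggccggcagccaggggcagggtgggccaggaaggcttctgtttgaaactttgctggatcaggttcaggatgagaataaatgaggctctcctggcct
Chil3, chr3:106167565-106167814, minus strand: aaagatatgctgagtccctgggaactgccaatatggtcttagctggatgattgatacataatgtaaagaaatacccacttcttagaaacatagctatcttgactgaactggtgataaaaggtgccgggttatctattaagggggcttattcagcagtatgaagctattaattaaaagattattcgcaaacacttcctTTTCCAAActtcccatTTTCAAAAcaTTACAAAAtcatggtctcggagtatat
The C/EBP-type letters occurred 2 times before Ltf, 3 times before Ngp and 3 times before Chil3, and not in the printed windows of Pglyrp1 and Camp. The Ltf match nearest to the start begins 75 bases before it, and that of Ngp 11 bases before it. Over all 8 members, 6 held this motif, against 36.8% of the 32851 promoter windows of the same length. The core of a PU.1-type site, GAGGAA, was searched on both strands too. It was held by 5 of 8 members, with 2 matches before Pglyrp1, against 23.3% of all windows. AGGTCA, the core letters of a retinoic acid receptor site, stood once before Ltf, 46 bases from the start, and in no other member, against 14.0% of all windows. None of the marked matches overlapped another. These matches describe letters and were not tested as sites. Whether these counts go with the differences between groups was not tested. Chil3, with as many C/EBP-type matches as Ngp, had little range left above its signal on the arrays.

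**Figure D1:**
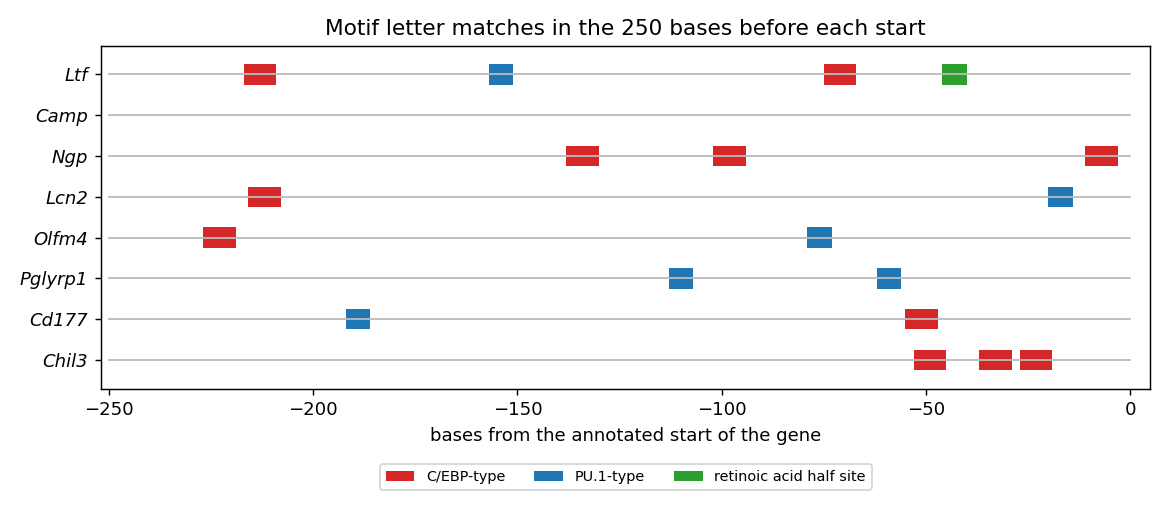
Positions of 3 motifs, as letter matches on either strand, in the 250 bases before the annotated start of each of the 8 genes (x axis, bases from the start; 1 line per gene). C/EBP-type matches are present for 6 genes, PU.1-type matches for 5, and AGGTCA, the core letters of a retinoic acid receptor site, for Ltf alone.

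Values are log2 of MAS5 signal, and a level is given below as log2 signal with the SD of the 2 arrays. Every member lay above the dim-signal level (the 40th percentile of an array, 4.81 to 5.12) on all 10 arrays. The maximum of an array was 15.42 to 15.95 on this scale, and the Chil3 probe set ranked between 11 and 59 among the 45037 probe sets of each array, so little range was left above it. Little range was also left above Ngp (best rank 7), Lcn2 (19), Olfm4 (30) and Camp (42), whose ATRA arrays read between 14.67 and 15.52. Ltf ran from rank 13343 to rank 78. With ATRA Ltf reached 15.05 and Cd177 14.98, so little range was left above their brightest arrays too. Levels of different probe sets are not compared with each other. Over 6329 bright genes (mean log2 signal of at least 9), replicates differed least in SC, with an SD of their differences of 0.158, and most in RAPD (0.503) and RATD (0.467), whereas the fit takes the spread as equal. Primary granule genes of promyelocytes were read to describe the cells, and of these Mpo (myeloperoxidase) lay between 13.33 and 15.32 on every array. Others of that list varied more over the arrays. Nkg7 lay between 8.60 (TD) and 12.92 (PD), and Fcnb between 8.05 (SC) and 12.78 (RAPD).

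Lactoferrin had the widest range. Ltf lay at 8.12 and 8.27 in SC, 11.37 and 10.76 in PD, 11.28 and 10.01 in TD, 14.63 and 15.02 in RAPD, and 13.42 and 15.05 in RATD. The SC arrays were lowest, the PD and TD arrays overlapped, and every array of the ATRA groups lay above every untreated array. The 2 ATRA groups overlapped each other, and RATD replicate 1 was their lowest array.

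Lcn2 read 13.38 and 13.50 in SC, 14.66 and 14.58 in PD, 14.95 and 14.65 in TD, 15.14 and 15.47 in RAPD, and 15.01 and 15.36 in RATD. Its 5 groups thus ran from SC through PD and TD to the ATRA groups, with overlap between PD and TD and between RATD and RAPD. Of the 8 members, Lcn2 alone had a higher mean in TD (14.80 ± 0.21) than in PD (14.62 ± 0.06), and these groups were not separated. That order depended on the scaling: Lcn2 was lower in TD with arrays scaled to 1 common 75th percentile (-0.27), and Olfm4 (0.29) and Chil3 (0.24) were higher in TD after quantile normalization.

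The cathelin-fold genes differed in range. Ngp was measured at 12.80 and 12.88 in SC, 14.77 and 14.68 in PD, 14.28 and 13.52 in TD, 15.11 and 15.52 in RAPD, and 15.07 and 15.50 in RATD. No neighbours in the order SC, TD, PD, RATD overlapped, and only RATD and RAPD did. Camp, on the same chromosome, stood at 14.15 and 14.28 in SC, 15.02 and 14.84 in PD, 14.56 and 14.05 in TD, 14.83 and 15.19 in RAPD, and 14.84 and 15.17 in RATD. Camp was already bright in SC, its SC and TD arrays overlapped, and PD overlapped both ATRA groups.

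Pglyrp1 gave 9.13 and 8.80 in SC, 10.03 and 9.97 in PD, 9.49 and 8.99 in TD, 12.78 and 13.09 in RAPD, and 11.38 and 13.57 in RATD. SC and TD overlapped, PD lay above both, and all ATRA arrays lay above all untreated ones. The RATD arrays stood on either side of the RAPD pair.

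Olfm4 was at 13.15 and 13.29 in SC, 13.49 and 13.86 in PD, 13.81 and 13.45 in TD, 15.04 and 15.21 in RAPD, and 14.67 and 15.24 in RATD. The untreated groups lay within a narrow band with PD and TD overlapping, and the ATRA groups stood apart from them. Cd177 was at 13.31 and 13.35 in SC, 14.13 and 14.06 in PD, 13.57 and 13.66 in TD, 14.65 and 14.98 in RAPD, and 13.90 and 14.83 in RATD. RATD replicate 1 lay below both PD arrays here, so that the ATRA and untreated groups of Cd177 were not fully separated.

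Chil3 varied least, with group means from 15.11 (SC) to 15.37 (RATD). Its arrays read 15.10 and 15.12 in SC, 15.31 and 15.24 in PD, 15.53 and 14.94 in TD, 15.05 and 15.45 in RAPD, and 15.29 and 15.46 in RATD, and the SC arrays lay below both PD arrays. In the order of the means, SC, TD, RAPD, PD and RATD, each group overlapped the next. A further probe set, shared by Chil3 and its near-identical paralog Chil4 and thus outside the rule, lay between 15.37 and 15.95. The probe set annotated to Chil4 alone lay between 7.33 and 9.31.

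**Figure D2:**
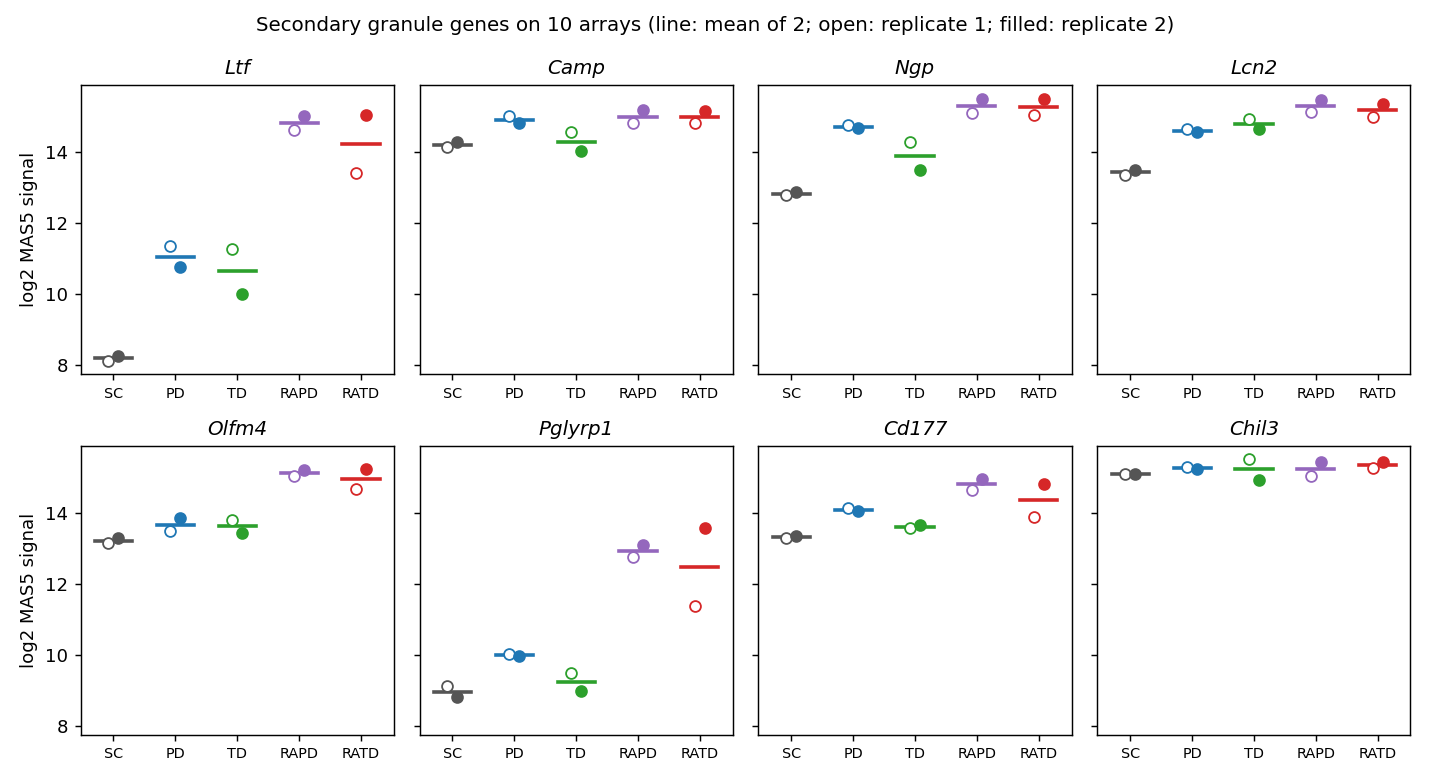
Log2 MAS5 signal (y axis) of the 8 genes in the 5 groups (x axis), with each array as a point (open, replicate 1; filled, replicate 2) and the group mean as a line. Ltf, Ngp, Lcn2, Olfm4 and Pglyrp1 have all 4 ATRA arrays above all 6 untreated arrays, while Chil3 stays between 14.94 and 15.53. For Lcn2 the margin is narrow (15.01 on RATD replicate 1, 14.95 on TD replicate 1). The share of all genes with this order is not given here.

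To describe the untreated subsets, PD and TD were compared with SC and with each other, with 95% intervals from the fit and Benjamini-Hochberg adjusted p-values over 14581 genes. A difference is called at an adjusted p under 0.05. PD was higher than SC for 5 of 8 members: Ltf by 2.87 log2 units (interval 1.83 to 3.91), Ngp by 1.88 (1.35 to 2.41), Lcn2 by 1.18 (0.79 to 1.57), Cd177 by 0.77 (0.23 to 1.31, adjusted p = 0.0377) and Camp by 0.71 (0.27 to 1.15, adjusted p = 0.0230). Olfm4 (0.45, -0.01 to 0.91), Pglyrp1 (1.03, -0.06 to 2.13) and Chil3 (0.17, -0.27 to 0.61) did not pass. Of all genes, 10.6% passed as higher in PD and 15.2% as lower. The arrays did not overlap for 8 of 8 members, against 41.4% of genes that were higher without overlap. The median member differed by 0.90 and the median gene by 0.20, a shift that was 0.31 with quantile-normalized values and 0.60 when arrays were scaled to 1 common 75th percentile. Under quantile normalization Camp (0.28, adjusted p = 0.0828) and Cd177 (0.38, adjusted p = 0.182) were no longer called and Chil3 lay at -0.21, while Ltf, Ngp and Lcn2 were called under all 20 alternatives. The Camp and Cd177 calls were also lost without any 1 of the SC or PD arrays (adjusted p from 0.0587 to 0.187), and that of Cd177 without either TD array (0.0529 and 0.0530). Pglyrp1 was called as well without either RATD array (0.00440 and 0.00457), and both Olfm4 (0.85, adjusted p = 0.0103) and Pglyrp1 (1.44, adjusted p = 0.0182) with 75th percentile scaling.

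TD was higher than SC for 3 of 8 members, against 4.96% of genes called higher and 3.20% lower: Ltf by 2.45 log2 units (1.41 to 3.50), Lcn2 by 1.36 (0.97 to 1.76) and Ngp by 1.06 (0.53 to 1.59). The other members differed by 0.09 (Camp) to 0.41 (Olfm4), with adjusted p from 0.284 to 0.861. Groups did not overlap for 5 of 8 members, against 27.7% of genes. The calls of Ltf and Ngp were lost without SC replicate 1 (adjusted p = 0.0685 and 0.140), SC replicate 2 (0.0564 and 0.113) or TD replicate 1 (0.0981 and 0.166), where Ltf was at 1.82 and Ngp at 0.67 without the last. Ltf was at 3.09 without TD replicate 2. Lcn2 was called in all 20 alternatives.

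Between TD and PD, 2 members were lower in TD, Ngp by 0.82 log2 units (interval of TD minus PD -1.35 to -0.29, adjusted p = 0.0194) and Camp by 0.62 (-1.06 to -0.18, adjusted p = 0.0313), against 17.2% of all genes called lower. No member was called higher by limma, against 18.0% of genes, and 2 members had an unadjusted p under 0.05 in either direction. Ltf (-0.42, -1.46 to 0.63), Lcn2 (0.18, -0.21 to 0.57), Olfm4 (-0.04, -0.50 to 0.42), Pglyrp1 (-0.76, -1.86 to 0.33), Cd177 (-0.48, -1.02 to 0.05) and Chil3 (-0.04, -0.48 to 0.40) did not pass. Arrays of TD lay below those of PD without overlap for 4 of 8 members, against 38.2% of genes. After quantile normalization Lcn2 (0.53, adjusted p = 0.00166) and Chil3 (0.24, adjusted p = 0.0352) were called higher in TD, and Camp was at -0.30 and not called (adjusted p = 0.0544). Without TD replicate 2, Ngp was at -0.44 and Camp at -0.36, neither called (adjusted p = 0.199 and 0.255), and the Ngp call was also lost without either PD array (0.116 and 0.0661). The Camp call was lost without either PD array (0.189 and 0.0687) or either SC array (0.0522 in both cases). Pglyrp1 and Cd177 were called lower without either RATD array (adjusted p from 0.0129 to 0.0273).

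Beside these differences, TD stood apart by genes of monocytes and macrophages. Their summed linear signal over 19 tested genes of the list of 21 was 98696 and 97918 in TD, against 32074 and 33897 in SC and 23392 and 29259 in PD. In TD minus SC 11 of the 19 were called higher and 1 lower. Trem2, a macrophage receptor, was at 10.45 and 10.94 in TD, 9.47 and 8.23 in RATD, and between 2.49 and 4.03 on the SC and PD arrays, under the dim-signal level. Of the 19, 3 were under that level on both arrays of SC, 2 in PD and RAPD, and 0 in TD and RATD. In bulk RNA of this kind, fewer cells of a type and less RNA per cell cannot be told apart, and the part of monocyte-like cells in the TD levels of the granule genes was not tested.

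Exposure to ATRA was examined first in PD. RAPD was higher than PD for 4 of 8 members, against 4.86% of all genes called higher and 3.19% lower. Ltf rose from 11.06 ± 0.44 to 14.82 ± 0.28, a 13.6-fold difference (interval 6.58 to 27.9, adjusted p = 0.00209). Pglyrp1 rose from 10.00 ± 0.04 to 12.93 ± 0.22, or 7.63-fold (3.57 to 16.3, adjusted p = 0.0105), and Olfm4 from 13.67 ± 0.26 to 15.13 ± 0.12, or 2.74-fold (1.99 to 3.77, adjusted p = 0.00457). Lcn2 rose 1.61-fold (1.23 to 2.11, adjusted p = 0.0412). Cd177 differed by 0.72 log2 units (0.18 to 1.25, adjusted p = 0.0884) and Ngp by 0.59 (0.06 to 1.12, adjusted p = 0.143) without passing. For Camp (0.08, -0.36 to 0.52) and Chil3 (-0.03, -0.47 to 0.42) the interval included 0. Arrays did not overlap for 6 of 8 members, against 24.8% of genes. Only 0.158% of genes had a larger difference than Ltf, and the median member stood at 0.70 against -0.01 for the median gene.

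The Ltf call was lost under 1 of 21 alternatives, a fit without the intensity trend, where adjusted p was 0.0737 and no member was called. Pglyrp1 was not called without either PD array (adjusted p = 0.0966 and 0.0543) or RAPD replicate 1 (0.0626), Olfm4 without PD replicate 1 (0.0748), and Lcn2 kept its call in 6 of 21 alternatives, and 2 of 10 that left out an array (both RATD arrays), with adjusted p of 0.0535 to 0.201 in the other 8. Under quantile normalization Ngp (0.73, adjusted p = 0.0275) and Cd177 (0.83, adjusted p = 0.0383) were called as well, as was Cd177 without either RATD array (0.0136 and 0.0133).

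In the TD subset only 42 genes of 14581 were called with ATRA, 28 of them higher (0.192%) and 14 lower (0.0960%), and 4 of the 28 were members. Ltf went from 10.65 ± 0.90 in TD to 14.23 ± 1.15 in RATD, 12.0-fold higher (interval 5.83 to 24.7, adjusted p = 0.0140). Pglyrp1 went from 9.24 ± 0.35 to 12.47 ± 1.55, 9.41-fold higher (4.41 to 20.1, adjusted p = 0.0280). Ngp was 2.61-fold higher (1.81 to 3.76, adjusted p = 0.0438) and Olfm4 2.50-fold (1.82 to 3.44, adjusted p = 0.0304). Cd177 (0.75, 0.21 to 1.29, adjusted p = 0.290), Camp (0.70, 0.26 to 1.14, adjusted p = 0.216), Lcn2 (0.38, -0.01 to 0.77, adjusted p = 0.482) and Chil3 (0.14, -0.31 to 0.58, adjusted p = 0.896) did not pass. By level, arrays did not overlap for 7 of 8 members, against 19.9% of genes. Larger differences than that of Ltf were seen for 0.103% of genes, and the median member was at 1.04, the median gene at -0.01.

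These calls rest on few arrays. All 4 were lost without TD replicate 2 (adjusted p from 0.164 to 0.266), without the intensity trend (0.232 to 0.320) and when the 4 arrays of the comparison were fitted alone (0.265 to 0.353). Without either SC, PD or RAPD array, Ngp, Olfm4 and Pglyrp1 missed the threshold (0.0506 to 0.0965) with unchanged differences, Ngp and Olfm4 missed it without RATD replicate 2 (0.239 and 0.164), and Olfm4 and Pglyrp1 without TD replicate 1 (0.0985 and 0.127), while Ltf was called in 9 of 10 such fits. The size of the Pglyrp1 difference moved from 3.23 to 4.33 log2 units without RATD replicate 1 and to 2.14 without RATD replicate 2. That of Ltf moved from 3.59 to 4.40 and 2.78 without these arrays, and to 4.22 and 2.95 without TD replicate 1 and TD replicate 2. Without RATD replicate 1, Cd177 was called too (1.22, adjusted p = 0.00355).

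**Figure D3:**
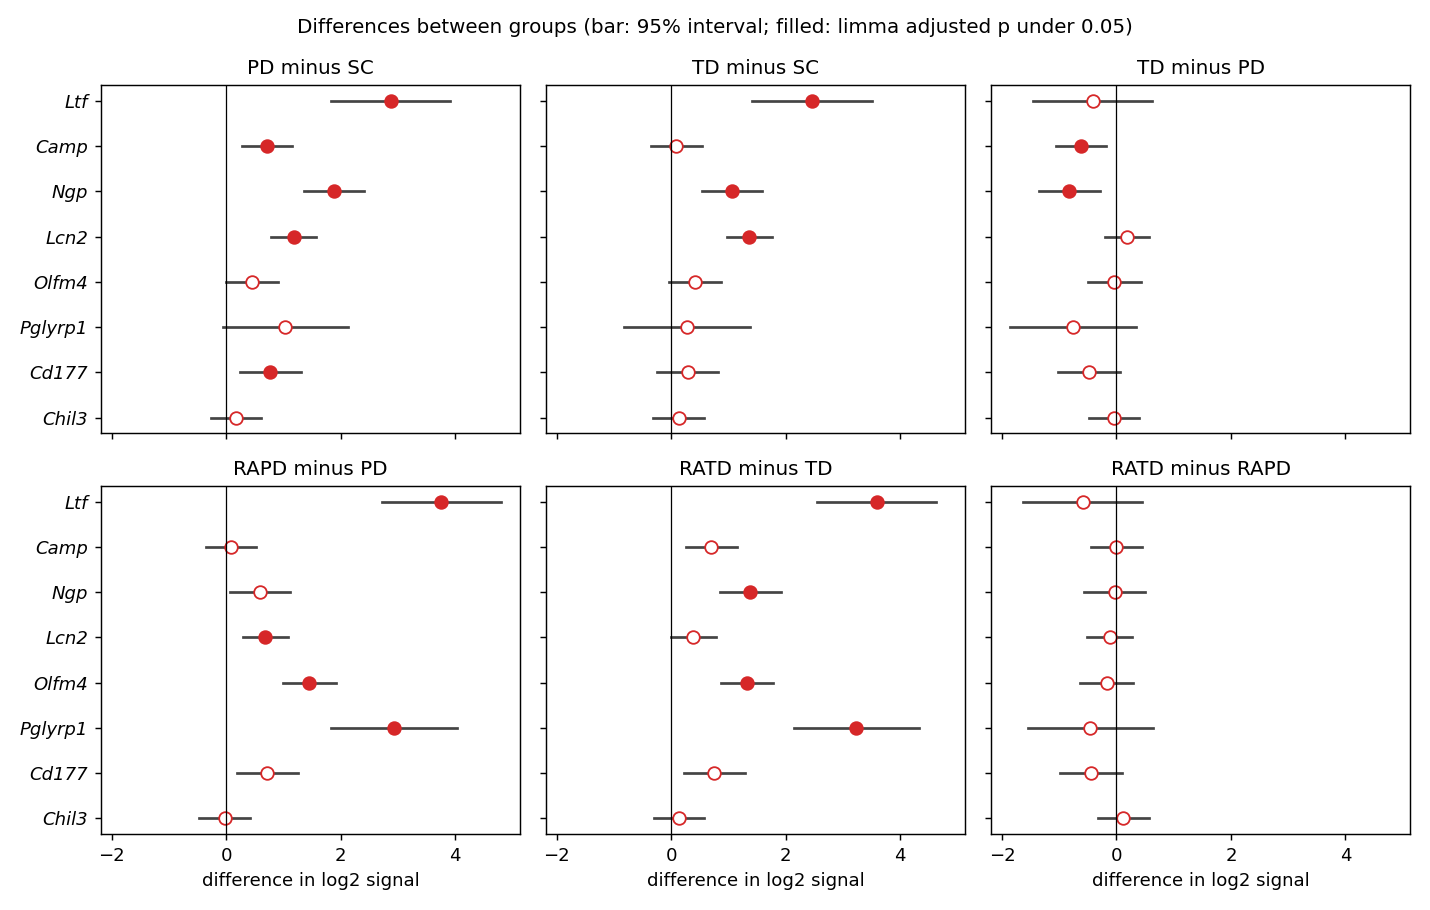
Differences in log2 signal (x axis) of the 8 genes (y axis) in 6 comparisons, with the 95% interval of the limma fit as a bar and called differences as filled points. The intervals of Ltf and Pglyrp1 lie at or above 1.84 in both ATRA comparisons, and those of Chil3 include 0 in all 6.

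The subsets were compared after ATRA. No member was called by limma between RATD and RAPD, and 0 had an unadjusted p under 0.05, while 2.65% of all genes were called higher in RATD and 2.13% lower. Arrays of the groups overlapped for 8 of 8 members. The share of all genes with such overlap is not given here, so this count does not show that the subsets were alike. The intervals still allow sizeable differences, from -1.63 to 0.45 for Ltf and from -1.55 to 0.64 for Pglyrp1, and are narrower for Camp (-0.44 to 0.44) and Lcn2 (-0.51 to 0.27). Without RATD replicate 2, Pglyrp1 (-1.56, adjusted p = 0.00634) and Cd177 (-0.91, adjusted p = 0.0184) were called lower in RATD.

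Whether the response to ATRA differs between the subsets was tested by the interaction, the difference in TD minus that in PD. limma called 0 members, with 1 (Ngp) at an unadjusted p under 0.05, and 0.240% of all genes. Estimates were 0.79 for Ngp (0.04 to 1.54, adjusted p = 0.311), 0.62 for Camp (-0.01 to 1.24, adjusted p = 0.338) and -0.30 for Lcn2 (-0.85 to 0.25). For Ltf the estimate was -0.17 with an interval of -1.65 to 1.30, and for Pglyrp1 0.30 with -1.25 to 1.85. The data therefore leave room for responses that differ by over a log2 unit either way for these 2 genes. That Ngp was called with ATRA in TD and not in PD, and Lcn2 in PD and not in TD, was not shown to be a difference between the subsets.

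The 2 arrays of a group deviated together across the members. In RATD, replicate 2 was higher than replicate 1 for 8 of 8 members, by 0.17 (Chil3) to 2.19 log2 units (Pglyrp1), while 49.1% of all genes were higher on replicate 2. A gap as wide as that of Pglyrp1 was seen in 5.75% of genes, and as that of Ltf (1.62) in 9.99%. The same array of RATD had the lower summed signal of monocyte and macrophage genes, 40588 against 80948 on replicate 1, and the higher one of the other secondary and tertiary granule genes, 196725 against 123523. In RAPD replicate 2 was higher for 8 of 8 as well, within 0.17 to 0.41, where 58.7% of genes were higher on replicate 2. That direction was not particular to the members. RAPD replicate 2 also had higher summed signals of primary granule genes (262197 against 212901) and mature neutrophil genes (175618 against 139570). Monocyte and macrophage genes were lower there (17079 against 23935). Among bright single genes, S100a8 read 15.50 and 15.90 in RAPD, and Cybb 14.41 and 13.99. In TD replicate 2 was lower for 7 of 8, with the widest gap for Ltf (-1.27), where 45.6% of all genes were higher on replicate 2. Summed signals were lower on that array for primary granule genes (129284 against 173694) and mature neutrophil genes (125531 against 163135) too. The same held for the other secondary and tertiary granule genes (113705 against 137988), while monocyte and macrophage signal was nearly equal. The drop in TD was thus not particular to the members. The share of these gaps in the group differences was not tested beyond leaving out each array.

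**Figure D4:**
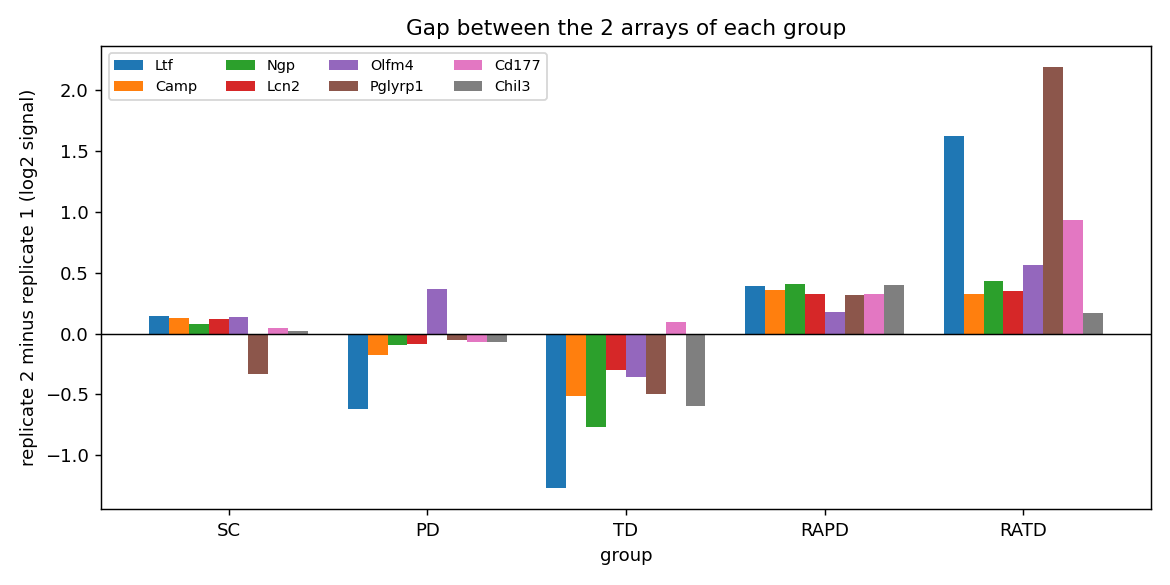
Replicate 2 minus replicate 1 in log2 signal (y axis) for each of the 8 genes (bars) in each group (x axis). All bars point up in RAPD and RATD, where they reach 2.19, and all but that of Cd177 point down in TD.

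As a share of the linear signal of all probe sets, the 8 members together held 0.254% and 0.262% in SC, 0.389% and 0.381% in PD, 0.399% and 0.314% in TD, 0.595% and 0.695% in RAPD, and 0.511% and 0.748% in RATD. The ATRA arrays thus all lay above the untreated ones.

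Other genes of the granule programme were taken from lists chosen by function. For scale, 4.86% of all genes were called higher and 3.19% lower in RAPD against PD, and 0.192% and 0.0960% in RATD against TD. In TD against PD these shares were 18.0% and 17.2%, and in PD against SC 10.6% and 15.2%. Of 18 tested genes of the other secondary and tertiary granule proteins, 9 rose and 0 fell in RAPD against PD (median 1.35). Mmp9, the gelatinase of tertiary granules, rose by 6.22 ± 0.55 log2 units (SE), Ceacam10, an adhesion molecule of the carcinoembryonic antigen family, by 3.42 ± 0.44, and Cybb, which encodes the catalytic part of the NADPH oxidase, by 2.57 ± 0.23. In RATD against TD, 1 of the 18 rose (Ceacam10, by 2.78 ± 0.44) and 1 fell (Slc11a1, an ion transporter of phagosomes, by 1.85 ± 0.28), with a median of 0.19. Mmp9 was at 2.97 ± 0.55 there without passing (adjusted p = 0.0582). Cybb was at 0.17 ± 0.23 there, and its responses in the subsets differed by -2.41 ± 0.33 (limma adjusted p = 0.0167), the 1 gene of this list called in the interaction. In TD against PD, 7 of these 18 were higher and 0 lower, with Slc11a1 at 4.19 ± 0.28 and Cybb at 2.68 ± 0.23. Among the 8 members 0 were higher and 2 lower. Of 19 monocyte and macrophage genes, 13 were higher in TD than in PD and 1 lower. The part of monocyte-like cells in the TD levels of the 18 genes was not tested. For the 18, PD against SC gave 5 higher and 1 lower (Cybb, -0.89 ± 0.23).

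Of 11 tested primary granule genes, 1 rose and 1 fell in RAPD against PD. In RATD against TD 0 passed and 4 had an unadjusted p under 0.05, where limma gave Fcnb 2.67 ± 0.54, Nkg7 1.76 ± 0.36 and Elane, neutrophil elastase, 0.88 ± 0.22 (adjusted p from 0.0739 to 0.142). Fcnb, which encodes a ficolin, rose by 3.10 ± 0.54 in RAPD, and Cst7, a cystatin, fell by 1.24 ± 0.27. In TD against PD 7 of the 11 were lower, with Nkg7 at -3.72 ± 0.36, and 1 was higher, the protease activator Ctsc (1.57 ± 0.24). Of 11 tested mature neutrophil genes, 3 rose and 1 fell in RAPD against PD, and limma called 0 in RATD against TD, with 4 at an unadjusted p under 0.05 (Il1r2 1.05 ± 0.26, adjusted p = 0.137). The risers were Fpr2, a formyl peptide receptor (4.31 ± 0.21), Stfa3, a stefin (2.26 ± 0.25), and Cxcr2, a chemokine receptor (1.75 ± 0.29). The median of this list was 0.09, with 6 of 11 above 0, and Trem1 had the largest fall (-0.92). Fpr2 was already at 13.44 and 13.46 in TD, and at 13.10 and 13.21 in RATD. In the interaction 1 gene of this list was called, as lower. Of the 19 monocyte and macrophage genes, 1 rose (Ctss, 1.22 ± 0.33) and 2 fell in RAPD against PD (Csf1r, -1.52 ± 0.35, and Cx3cr1, -1.67 ± 0.47). In RATD against TD 1 rose (Vcam1, 2.79 ± 0.47) and 1 fell (Cx3cr1, -3.13 ± 0.47), with a median of -0.72, and their summed signal in RAPD was 23935 and 17079.

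**Figure D5:**
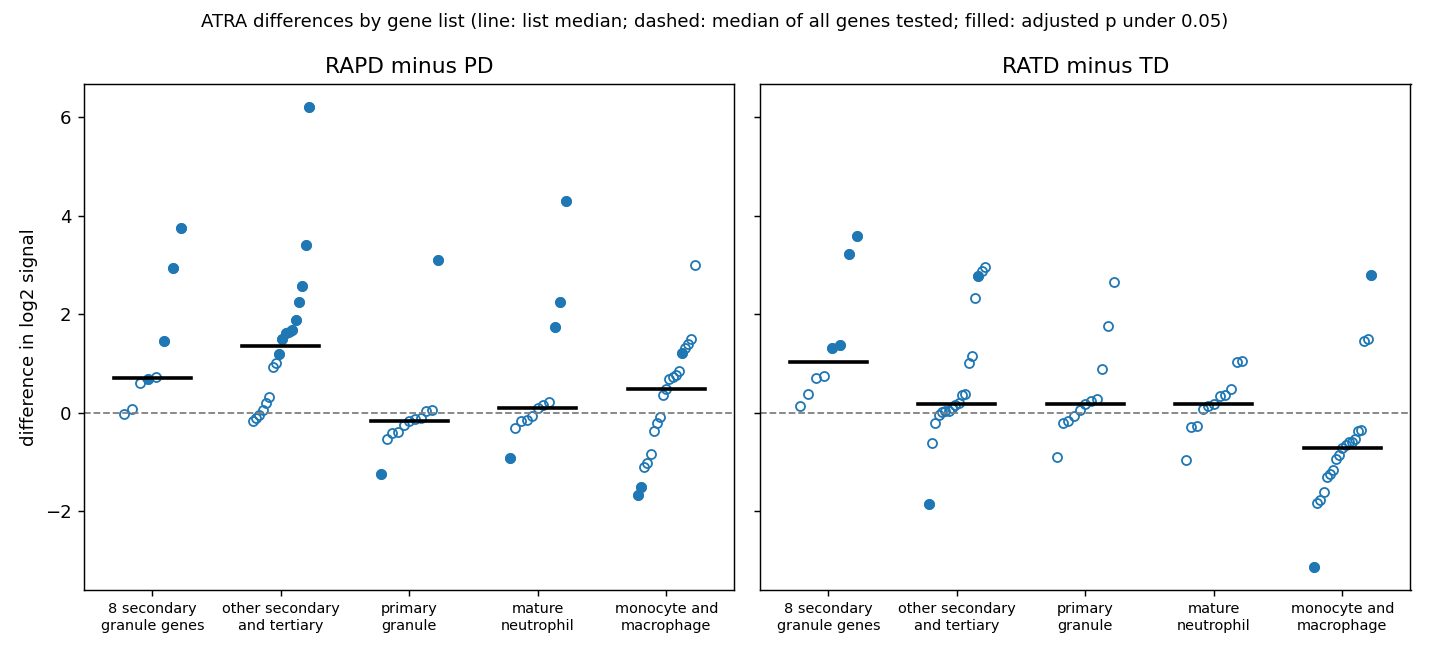
Differences in log2 signal (y axis) with ATRA in the PD subset (left) and the TD subset (right) for the 8 genes and 4 other lists (x axis), 1 point per gene, filled where called, with the list median as a line and the median of all genes dashed. The medians of the 8 genes are 0.70 and 1.04, and those of the primary granule genes -0.17 and 0.17.

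Transcription factors known to act on granule genes were listed with the members, and 11 of 12 were tested. Cebpe had no probe set of its own symbol among those used here. In PD against SC 4 rose and 2 fell: the C/EBP family genes Cebpb (0.76 ± 0.14), Cebpa (0.61 ± 0.16) and Cebpd (0.47 ± 0.15), and Spi1, which encodes PU.1 (0.56 ± 0.18), were higher, and Myb (-0.82 ± 0.18) and Nfkbiz (-2.30 ± 0.34) were lower. With ATRA, 1 rose in the PD subset, Nfkbiz, an IκB family coactivator (1.95 ± 0.34, adjusted p = 0.0118), and limma called 0 in the TD subset, with 3 at an unadjusted p under 0.05. Klf5, a zinc finger factor, lay at 1.21 ± 0.41 in PD (adjusted p = 0.0865) and 2.07 ± 0.41 in TD (adjusted p = 0.0739), and Gfi1, a repressor needed for granulocyte formation, at 1.41 ± 0.30 in TD (adjusted p = 0.0820). Gfi1 was also lower in TD than in PD, by 1.86 ± 0.30. The 4 RAPD and RATD arrays held Klf5 at 10.73, 10.71, 9.92 and 11.56, with RATD replicate 2 highest.

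Genes with the most similar profile were found for the members whose group means spanned at least 2 log2 units, as the smallest root mean square (RMS) difference over the 10 arrays after each gene was centred on its own mean. The arrays share groups and scaling, so this is a description. For Ltf these were the transcript AA467197 (RMS difference 0.44 log2 units), Ceacam10 (0.75) and Dapk2, a death-associated kinase (0.75). Dapk2 lay under the dim-signal level in SC (4.05 and 4.33). AA467197 went from 4.95 and 5.93 in SC to 11.26 and 11.62 in RAPD. For Pglyrp1 they were Map3k9, a kinase (0.26), Fcnb (0.40) and Slc2a3, a glucose transporter (0.42). Map3k9 lay under the dim-signal level on SC replicate 2 (4.36). Fcnb, of the primary granule list, shared with Pglyrp1 both the rise with ATRA and the wide RATD gap, at 9.78 and 12.14. For Ngp they were Syt6 (0.34), which lay between 3.32 and 6.40 and so partly under the dim-signal level, and the cell cycle inhibitors Cdkn2d (0.34) and Cdkn2a (0.36). Among the members themselves, with no limit on span, Camp and Chil3 were closest (0.30), followed by Camp and Cd177 (0.31). Ltf and Chil3 were farthest apart (2.41). The measure keeps the size of each gene's changes, so genes that vary little come out close. Group means spanned 0.27 log2 units for Chil3, 0.79 for Camp, 1.49 for Cd177 and 6.63 for Ltf.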

How the data were processed

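The deposited table holds 45037 probe sets on 10 one-colour arrays, as log2 values that the authors made with MAS5, per the submitters' processing notes (version not given in the sources used here). Biotinylated cRNA was prepared from 6 µg of total RNA, per the labels' protocols. The log2 scale was judged from the values. On the linear scale, each array's mean after trimming 2% from either end was 496.3 to 497.0, so arrays had been scaled to 1 target. No detection calls were used here. Symbols came from the platform annotation (34945 probe sets with 1 symbol, 932 with several, 9160 with none). A probe set was kept if 2 or more arrays had it over their 40th percentile (the dim-signal level), and the brightest kept one stood for a gene. limma 3.58.1 in R 4.3.3 (lmFit, eBayes with intensity trend) fitted 5 group means on all 10 arrays, leaving 5 residual degrees of freedom, two-sided, with Benjamini-Hochberg adjustment over 14581 genes per comparison. The script was tested on simulated data. The members, gene lists, motifs and alternatives were chosen with earlier results of these data known. Named are all 8 members, up to 3 genes of smallest p per list in each ATRA comparison, other list genes beside a result, and the 3 most similar genes. Besides the granule, neutrophil and monocyte lists, lists of eosinophil, basophil and mast cell, B cell, T and NK cell, erythroid and progenitor genes were described. The number of arrays limits the precision.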

Additional observations from a re-analysis of the deposited data

How the results depend on the processing

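Among 1128 recomputed member differences, 953 kept direction and side of the threshold, 98 lost a call, 26 gained one, and 51 changed sign, 0 of them a difference called in the report's fit. The number of members called changed by over 1.5 times with these settings. The share of all genes called is given in brackets. In the report's fit it was 25.8% for PD minus SC, 8.15% for TD minus SC and 35.3% for TD minus PD. For RAPD minus PD it was 8.04%, and for RATD minus TD 0.288%. Without the intensity trend the number of members was 3 for PD minus SC (15.9%) and 1 for TD minus SC (3.92%). It was 0 for TD minus PD (29.3%), RAPD minus PD (0.199%) and RATD minus TD (0.00686%). RATD minus TD gave 1 with dim values raised to the 40th percentile (0.185%) and 2 without the filter on dim probe sets (0.137%). It gave 0 when its own arrays were fitted alone (0%). TD minus PD gave 4 with 75th percentile scaling (44.24%), 1 without the filter (27.35%) and 4 from its own arrays alone (40.02%). The share of all genes called thus moved in the same direction as the number of members in these 3 settings. PD minus SC gave 3 after quantile normalization (28.1%). A smaller change to 7 was seen with 75th percentile scaling (41.5%), with array weights (37.8%) and from its own arrays alone (37.3%), where more of all genes were called too. Calls of members also changed when 1 array was left out, and so did the share of all genes called. Such a fit leaves 1 array in a group, so its counts of members are not given here.

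Signs of differences not called in the report's fit turned in these cases, of which Chil3 in TD minus PD was called after quantile normalization (adjusted p = 0.0352). After quantile normalization they were -0.21 for Chil3 in PD minus SC, -0.019 for Camp in TD minus SC, 0.29 for Olfm4 and 0.24 for Chil3 in TD minus PD, 0.0705 for Chil3 in RAPD minus PD, 0.12 for Camp and 0.0276 for Ngp in RATD minus RAPD, and 0.0171 for Ltf, -0.18 for Cd177 and -0.0586 for Chil3 in the interaction. With 75th percentile scaling they were -0.27 for Lcn2 in TD minus PD, -0.11 for Camp in RAPD minus PD, -0.05 for Chil3 in RATD minus RAPD, and 0.11 for Ltf and 0.15 for Olfm4 in the interaction. With 1 array left out, the ranges that include both signs were, in TD minus SC, -0.17 to 0.35 for Camp and -0.17 to 0.43 for Chil3. In TD minus PD they were -1.05 to 0.22 for Ltf, -0.22 to 0.14 for Olfm4 and -0.34 to 0.26 for Chil3. In RAPD minus PD they were -0.10 to 0.26 for Camp and -0.22 to 0.17 for Chil3, and in RATD minus TD -0.16 to 0.44 for Chil3. In RATD minus RAPD they were -1.40 to 0.22 for Ltf, -0.18 to 0.18 for Camp, -0.25 to 0.18 for Ngp, -0.30 to 0.0574 for Lcn2, -0.45 to 0.11 for Olfm4, -1.56 to 0.64 for Pglyrp1, -0.91 to 0.0178 for Cd177 and -0.0772 to 0.32 for Chil3. In the interaction they were -0.99 to 0.64 for Ltf, -0.41 to 0.15 for Olfm4, -0.79 to 1.40 for Pglyrp1, -0.43 to 0.50 for Cd177 and -0.14 to 0.46 for Chil3. The cause was not tested.

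The correlation of same-numbered deviations between groups ran from -0.501 (PD and RAPD) to 0.0995 (SC and PD) over genes. The next lowest was -0.223 (SC and RAPD). Replicate numbers were therefore not taken as pairs in the report's fit. Such correlations cannot show that samples were unpaired, and whether PD and RAPD arrays share a source in the opposite order was not tested. With the replicate block, 5, 3, 2, 3, 3, 0 and 0 members were called in the order of comparisons in the report. The shares of all genes called were 23.1%, 6.95%, 33.6%, 5.36%, 0.219%, 2.54% and 0.137% in that order. Lcn2 in RAPD minus PD (adjusted p = 0.0607) and Ngp in RATD minus TD (0.0628) lost their calls. Pairing the PD and RAPD arrays crosswise, an alternative added after seeing the data, called 6 members and 2205 genes. The count of all genes called ranged over the alternatives from 1191 to 6055 for PD minus SC (3766 in the report), 398 to 3291 for TD minus SC (1189), 2982 to 6450 for TD minus PD (5144), 29 to 2556 for RAPD minus PD (1173), 0 to 856 for RATD minus TD (42), 28 to 2453 for RATD minus RAPD (697) and 3 to 1374 for the interaction (35). In PD minus SC 41.2% of calls were higher, 54.0% after quantile normalization and 72.9% with 75th percentile scaling. In TD minus PD these shares were 51.1%, 39.5% and 27.7%. In RAPD minus PD they were 60.4%, 55.7% and 34.8%, and in RATD minus RAPD 55.5%, 49.9% and 39.2%. Signals near the array maximum limit what Chil3 and Camp can show, and the folds of Ngp, Lcn2 and Olfm4 with ATRA, their RATD minus RAPD values and their interactions. The same values of Ltf and Cd177 may be limited as well, since their ATRA arrays reached 15.05 and 14.98.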

Other observations

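Markers of other marrow cells were described beside the granule genes by the same fit. Of 9 tested eosinophil, basophil and mast cell genes, 0 rose and 1 fell in RAPD against PD (Mcpt8, a basophil protease, -1.23 ± 0.26), and limma called 0 in RATD against TD, with 5 at an unadjusted p under 0.05, where it gave Siglecf 1.35 ± 0.27 and Prg2, eosinophil major basic protein, 1.95 ± 0.52 (adjusted p = 0.0739 and 0.173). Of 8 B cell genes, 0 rose and 2 fell in RAPD against PD, the surrogate light chain genes Vpreb1 (-2.50 ± 0.26) and Igll1 (-1.30 ± 0.21), and limma called 0 in RATD against TD, with 1 at an unadjusted p under 0.05. Of 5 T and NK cell genes, 4 erythroid genes and 6 progenitor genes, limma called 0 in either ATRA comparison, with 1, 0 and 2 at an unadjusted p under 0.05 in RAPD against PD and 1, 0 and 0 in RATD against TD. Among them Cd3d was at 1.46 ± 0.51 in RAPD against PD and 1.88 ± 0.51 in RATD against TD (adjusted p = 0.0948 and 0.182), and Kit at -0.52 ± 0.20 and 0.14 ± 0.20 (adjusted p = 0.114 and 0.888).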
